A study of Mus musculus with 6 samples.

Results

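Genes for integrins, cadherins, claudins, tight junction proteins and nectins were followed in mouse granulosa cells (GCs), the follicle cells that enclose and nourish the oocyte, with and without dihydrotestosterone (DHT), a potent androgen that aromatase does not turn into estrogen. The members were all genes whose symbol begins with Itga, Itgb, Cdh, Cldn, Tjp or Nectin followed by a number, or with one of the lettered integrin names, and 48 of the 16300 genes in the table met this rule. They comprised 13 integrin alpha subunits, 6 integrin beta subunits, 12 cadherins, 8 claudins, 3 tight junction proteins of the Tjp family and 3 nectins. The other 3, *Itgb1bp1*, *Itgb1bp2* and *Itgb3bp*, share the prefix but encode proteins that bind integrins and are not subunits. The GENCODE annotation of GRCm38 holds 94 genes that match the rule, and the other 46, among them *Itga4*, *Itgam* and *Cldn5*, were not analysed here.

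Both groups were cultured primary GCs from wild type C57BL/6J mice aged 8 to 9 weeks, taken at estrus, kept in serum medium, serum starved and then given either serum-free medium (control, 3 libraries) or 25 nM DHT for 24 h (DHT, 3 libraries). Each library pooled the GCs of several mice, so the values describe pools in culture and not single animals or GCs within the follicle. The labels name GCs as the cell type, although the extraction text speaks of whole ovary and a free-text field lists DHT for all 6 samples. Grouping followed the sample characteristic that separates control from DHT, and nothing states which libraries share a pool, so p-values measure the spread between these libraries.

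Integrins are pairs of an alpha and a beta subunit that span the membrane and hold the cell to its matrix. The alpha subunit largely sets the ligand: one group of subunits reads collagen, another laminin and another the RGD motif of fibronectin, vitronectin and related proteins. Cadherins and nectins join neighbouring cells at adherens junctions, and claudins together with the Tjp scaffolds build tight junctions. In the follicle, GCs rest on a basal lamina rich in laminin and collagen IV and are held to each other by N-cadherin, the product of *Cdh2*.

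The reads on genes summed to between 36111177 and 41928585 per library. Of 11 granulosa markers 10 were measured, and those expressed most, such as *Inha* (54181 ± 5157 normalized counts in control, SD, n = 3), *Inhba* and *Nr5a2*, were abundant in every library. *Cyp19a1* was not among the genes measured. The library of DHT replicate 2 stood apart in oocyte markers, whose summed level was 39.7 normalized counts per kilobase there against 158 to 364 in the other libraries, with *Zp3* and *Dppa3* at 0. Without that library, *Itga7* no longer passed the test (adjusted p = 0.0906) and the other 5 members called below still did.

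Few of these genes differed after androgen treatment. At an adjusted p of at most 0.05 (limma, Benjamini-Hochberg over 16292 genes), 6 of the 48 members (12.5%) differed between DHT and control, against 11.2% of all genes tested. The 3 integrin genes *Itga1*, *Itga7* and *Itgb3* were higher with DHT, where 6.52% of all genes were. The 3 genes *Cdh2*, *Itga6* and *Nectin2* were lower, where 4.66% of all genes were. The share of members past the test was therefore near that of the whole table. Of the 6, *Itga1* alone also changed by more than 1 on the log2 scale, which 1.31% of all genes did (0.908% higher and 0.399% lower). The median log2 fold change of the members was 0.0058, beside -0.0052 over all genes, with 24 members above 0 and 24 below. In 18 members (37.5%) the libraries of the groups did not overlap, 10 being higher and 8 lower with DHT, against 30.6% of all genes (15.9% higher and 14.7% lower). With 3 libraries a group an exact permutation test of a single gene cannot give a p below 0.1.

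**Figure D1:**
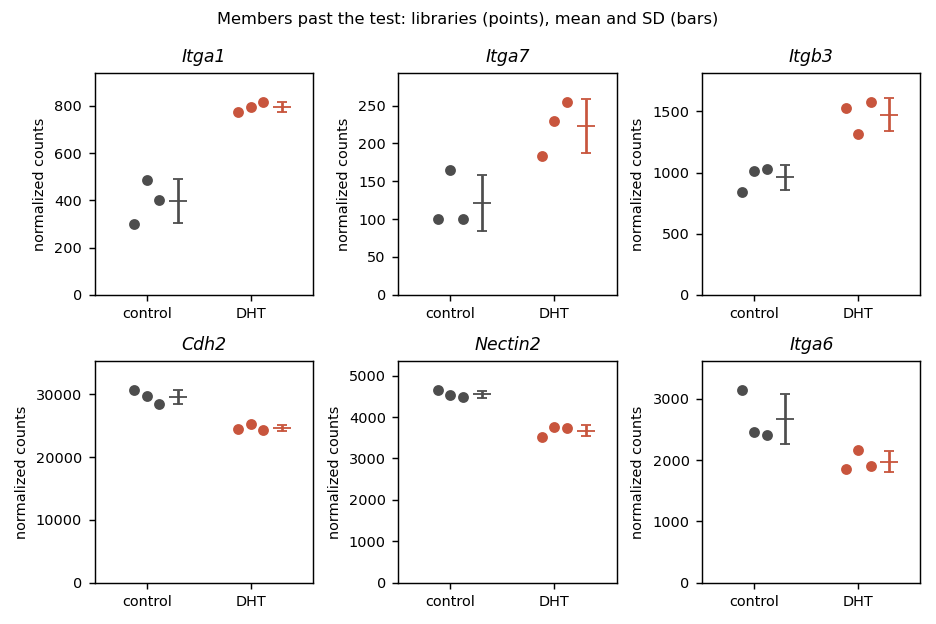
Normalized counts of the 6 members past the test, one panel a gene. Points are the 3 libraries of each group and bars the mean ± SD; every axis starts at 0. *Itga1*, *Itga7* and *Itgb3* had all DHT libraries above all controls, and *Cdh2*, *Nectin2* and *Itga6* had them below.

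The largest change was that of *Itga1* (ENSMUSG00000042284, chr13:114953096-115101964, minus strand, GRCm38), the alpha subunit of a receptor for collagen IV. Control replicates 1, 2 and 3 had 299.8, 486 and 402 normalized counts and DHT replicates 1, 2 and 3 had 773, 797 and 816; values below follow the same order. The DHT libraries lay close together and well above the highest control, whereas the controls spread over a wider range. The means were 396 ± 93.3 and 796 ± 21.6 (SD, n = 3), and the log2 fold change was 1.03 (SE 0.15) with an adjusted p of 0.00251. Of the exonic bases, 3.68% overlap the gene model *Gm49395* on the same strand. Without control replicate 1, the lowest library, the log2 fold change was 0.85 and the adjusted p was 0.000967, so the call remained while the change fell under 1.

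The promoter of *Itga1* is shown because this gene had the largest change, beside that of *Itgb1*, whose product is the beta subunit that pairs with the *Itga1* product. Both are the 250 bases before the gene's start, 5′ to 3′ on the gene's strand, from RefSeq (GRCm38.p6). Capitals mark AGAACA, the half-site of the androgen response element, searched on both strands.
Itga1 (chr13:115101965-115102214, minus strand): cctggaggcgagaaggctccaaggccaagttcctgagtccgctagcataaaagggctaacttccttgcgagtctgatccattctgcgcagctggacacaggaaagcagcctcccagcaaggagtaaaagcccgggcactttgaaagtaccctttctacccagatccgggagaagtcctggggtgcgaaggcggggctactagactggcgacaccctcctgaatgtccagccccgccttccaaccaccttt
Itgb1 (chr8:128685404-128685653, plus strand): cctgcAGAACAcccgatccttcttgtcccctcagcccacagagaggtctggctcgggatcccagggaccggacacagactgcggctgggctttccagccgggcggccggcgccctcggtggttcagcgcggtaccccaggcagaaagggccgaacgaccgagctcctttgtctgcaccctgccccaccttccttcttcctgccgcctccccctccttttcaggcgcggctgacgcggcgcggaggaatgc
The half-site occurred once in the *Itgb1* stretch, beginning 245 bases before the start, and these letters were not found in that of *Itga1*. RefSeq windows from 250 bases before to 50 after the start were matched for 32 of the 48 members. Of these, 5 held the half-site (*Cdh23*, *Cdh24*, *Itga2*, *Itgb1* and *Itgb3bp*), which is 15.6% of the windows matched, and 21.3% of the 27025 genes with a window held it. The full palindromic site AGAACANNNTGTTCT, which contains the half-site, was in the windows of 0 members and 3 of all genes.

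The other collagen-binding alpha subunits did not pass the test. *Itga2*, whose product pairs with that of *Itgb1* as a collagen I receptor, was the most abundant of them per length, at 186 ± 47.7 normalized counts per kilobase in control and 165 ± 14.2 with DHT (SD, n = 3). Its counts were 1393, 1628 and 958 in control and 1199, 1268 and 1068 with DHT, so that the controls enclosed all DHT libraries, and its log2 fold change was -0.14 (SE 0.16). *Itga10* and *Itga11*, known from cartilage and from fibroblasts, had log2 fold changes of -0.14 and -0.05. Per length, *Itga1* made up 5.93% to 9.92% of the summed level of the collagen-binding subunits in control and 15.1% to 17.5% with DHT. The share of all collagen-binding subunits in the alpha total overlapped between groups, at 4.39% to 6.58% in control and 5.16% to 5.82% with DHT, with *Itga2* holding most of it.

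Among the laminin-binding alpha subunits, one rose and one fell. *Itga7* (ENSMUSG00000025348, chr10:128933818-128958282, plus strand), best known as the laminin receptor of muscle, had 99.9, 164 and 100.1 normalized counts in control and 184, 230.2 and 255 with DHT. All DHT libraries were above all controls, although DHT replicate 1 exceeded control replicate 2 by only a small margin. The means were 121 ± 37.2 and 223 ± 35.9 (SD, n = 3), and the log2 fold change was 0.90 (SE 0.21) with an adjusted p of 0.0248. The call rested on single libraries: the adjusted p was 0.0695 without control replicate 1, 0.0906 without DHT replicate 2 and 0.109 without DHT replicate 3. It was 0.103 without limma's intensity trend, which lets the spread vary with the level.

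*Itga6* (ENSMUSG00000027111, chr2:71745616-71858416, plus strand), the alpha subunit of laminin receptors in many epithelia, moved the other way. Its normalized counts were 3140.5, 2463 and 2409.6 in control and 1850.4, 2168 and 1908 with DHT, and the highest value, that of control replicate 1, stood apart from the other controls. The means were 2671 ± 408 and 1975 ± 169 (SD, n = 3), and the log2 fold change was -0.43 (SE 0.10) with an adjusted p of 0.0265. The adjusted p rose to 0.0858 without DHT replicate 1 and to 0.105 without DHT replicate 3, and was 0.128 without the intensity trend. *Itga3*, the remaining laminin receptor subunit, was the most abundant of the set at 851 ± 38.5 normalized counts per kilobase in control. Its log2 fold change was -0.03 (SE 0.042), with a 95% interval from -0.12 to 0.07. *Itga6* supplied 22.7% to 29.3% of the laminin-binding level in control and 19.6% to 21.4% with DHT, and *Itga7* 1.04% to 1.81% and 2.18% to 2.92%. These shares were chosen after the values were seen and carry no test.

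**Figure D2:**
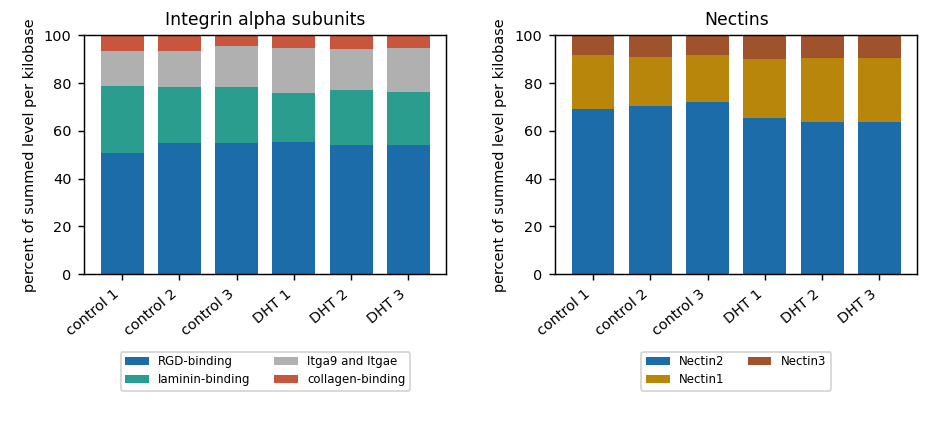
Make-up of the integrin alpha subunits by ligand class (left) and of the nectins (right) in each library, as percent of the summed normalized counts per kilobase. RGD-binding subunits held 50.7% to 55.3% of the alpha level in all libraries, and *Nectin2* held 69.3% to 72.0% of the nectin level in control and 63.6% to 65.2% with DHT.

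Markers of smooth muscle and pericytes moved in the same direction as *Itga1* and *Itga7*. Of 6 markers 5 were measured and 4 were higher with DHT, *Acta2* (log2 fold change 0.76), *Myh11* (0.67), *Cspg4* (0.89) and *Cnn1* (0.67), while *Des* had 0.25. Their summed level was 2020 to 3002 normalized counts per kilobase in control and 3834 to 4550 with DHT, and nearly all of it was *Acta2*, with means of 2459 and 4104. Among these calls, that of *Acta2* held with each library left out, and those of *Myh11*, *Cspg4* and *Cnn1* were lost without DHT replicate 2 and also without DHT replicate 3. *Des* stayed between 18.6 and 30.5 normalized counts in all libraries. More or fewer cells of a type and more or less RNA per cell cannot be told apart in such bulk libraries, and the part of these markers in the changes of *Itga1* and *Itga7* was not tested.

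The RGD-binding subunits held the largest part of the alpha level. *Itgav*, the alpha subunit of the vitronectin receptors and the most abundant alpha subunit per length, had 13981, 17045 and 19092 normalized counts in control and 20673, 18823 and 18146 with DHT. The groups overlapped, with control replicate 1 lowest, and the log2 fold change of 0.21 (SE 0.10) did not pass the test (adjusted p = 0.233). The log2 fold change of *Itgav* was 0.09 without control replicate 1 and 0.31 without control replicate 3, where it passed the test (adjusted p = 0.0409). The exons of *Itgav* share 634 bases with *Gm13684* on the other strand. *Itga5*, the alpha subunit of the fibronectin receptor, had a log2 fold change of -0.09 (SE 0.061) at a level of 928 ± 86.3 normalized counts per kilobase in control. *Itga8*, a receptor subunit for nephronectin, had 101, 159.8 and 88.9 normalized counts in control and 194, 173 and 182 with DHT. Its groups did not overlap, but its log2 fold change of 0.69 (SE 0.20) missed the threshold in limma (adjusted p = 0.0594). *Itga8* passed in DESeq2 on the recovered reads (adjusted p = 0.0199) and, in limma, without control replicate 2 (adjusted p = 0.0052). *Itga2b*, the platelet subunit, was measured at 8.10 ± 0.369 per kilobase in control.

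The last alpha subunits bind other ligands. *Itga9*, which pairs with *Itgb1* and binds tenascin C among other proteins, ranked with *Itga3* and *Itga5* per length, at 735 ± 106 normalized counts per kilobase in control and 895 ± 68.8 with DHT. Its log2 fold change was 0.29 (SE 0.10) with an adjusted p of 0.0892 in limma. *Itga9* passed in DESeq2 (adjusted p = 0.0115) and, in limma, without control replicate 3 (adjusted p = 0.0063). *Itgae*, known from intraepithelial lymphocytes, was the lowest alpha subunit at 2.20 ± 0.557 per kilobase in control.

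**Figure D3:**
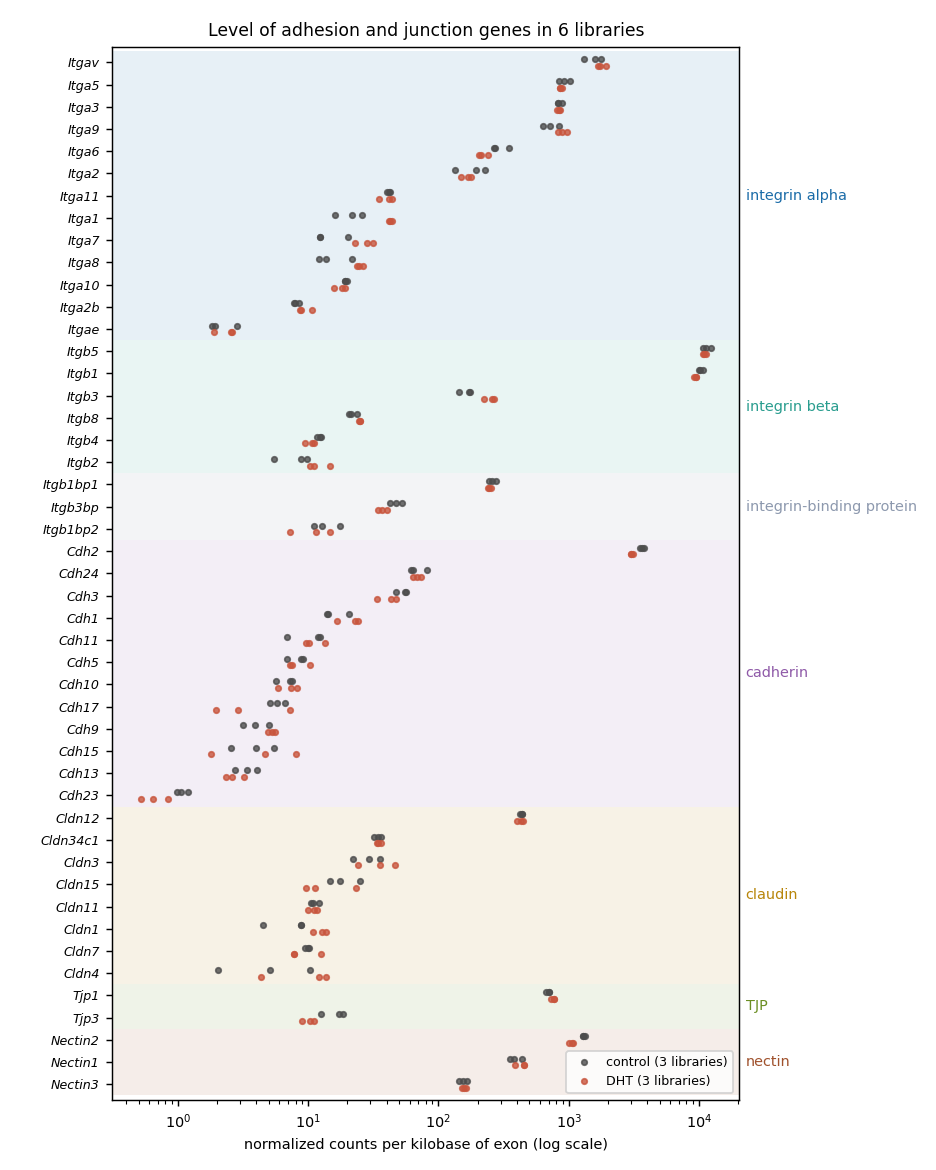
Level of the members in the 6 libraries, with 1 not shown, in normalized counts per kilobase of exon on a log axis, ordered by level within each family. *Itgb5* and *Itgb1* stood highest, *Cdh2* lay far above the other cadherins, and most claudins and cadherins lay below 100 normalized counts per kilobase.

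The beta subunits were dominated by *Itgb1* and *Itgb5*. *Itgb1*, the common partner of the collagen and laminin receptors, had 40477, 43554 and 41271 normalized counts in control and 37509, 38706 and 38382 with DHT. Every DHT library was below every control, yet the difference was small, a log2 fold change of -0.13 (SE 0.043), and missed the threshold in limma (adjusted p = 0.0973), whereas in DESeq2 on the recovered reads it passed (adjusted p = 0.0420). *Itgb5*, a partner of *Itgav* in a vitronectin receptor, had 38004, 40116 and 43870.3 in control and 39902, 38854 and 38294 with DHT. Its groups overlapped, and the 95% interval of its log2 fold change ran from -0.18 to 0.07. Per length, *Itgb1* took 44.3% to 48.1% and *Itgb5* 50.9% to 54.4% of the beta level in the 6 libraries, and *Itgb5* was the higher of them in each.

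*Itgb3* (ENSMUSG00000020689, chr11:104608000-104670476, plus strand), the other well known partner of *Itgav*, rose. Its normalized counts were 844, 1010.1 and 1032 in control and 1530.5, 1317 and 1576 with DHT, so that even the lowest DHT library was above the highest control. The means were 962 ± 103 and 1474 ± 138 (SD, n = 3), with a log2 fold change of 0.62 (SE 0.092) and an adjusted p of 0.00313. Even so, *Itgb3* supplied 0.688% to 0.772% of the beta level in control and 1.08% to 1.30% with DHT, a small part beside *Itgb1* and *Itgb5*.

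The remaining beta subunits were low and did not pass the test. *Itgb8*, which with *Itgav* binds latent TGF-beta, had a log2 fold change of 0.18 (SE 0.090) and groups that did not overlap. *Itgb4*, the hemidesmosome partner of *Itga6*, had -0.22 (SE 0.14). *Itgb2*, the beta subunit of leukocytes, had 29.7, 16.7 and 26.9 normalized counts in control and 45.0, 33.8 and 31.6 with DHT, with a log2 fold change of 0.59 (SE 0.27) and an adjusted p of 0.218. The summed level of 6 measured leukocyte markers was 326 to 396 normalized counts per kilobase in control and 247 to 441 with DHT, and 1 of them, *Csf1r*, was lower with DHT, a call lost without control replicate 1 and without DHT replicates 2 or 3. *Ptprc*, the defining leukocyte marker, had 5.94, 8.36 and 11.1 normalized counts in control and 15.7, 12.0 and 15.2 with DHT. Every DHT library was above every control, and its log2 fold change of 0.72 (SE 0.33) did not pass the test (adjusted p = 0.215). It was the 1 marker of the 6 with a log2 fold change above 0. The other 5 were below 0, from -1.35 for *Cd74*, whose groups did not overlap, to -0.07 for *Cd68*, and the median of the 6 was -0.30. The part of leukocytes in the values of *Itgb2* was not tested.

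None of the 3 integrin-binding proteins passed the test (0 of 3 also in edgeR and DESeq2), and 1 had an unadjusted p under 0.05. This was *Itgb3bp*, a centromere protein also known to bind the beta 3 tail, with a log2 fold change of -0.35 (SE 0.12) and an adjusted p of 0.0936. Part of its exons overlap those of *Pgm1* on the other strand, and the strand setting of the counts is not given in the sources used here. *Itgb1bp1*, which restrains integrin activation, and *Itgb1bp2*, melusin of striated muscle, had -0.08 and -0.32.

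**Figure D4:**
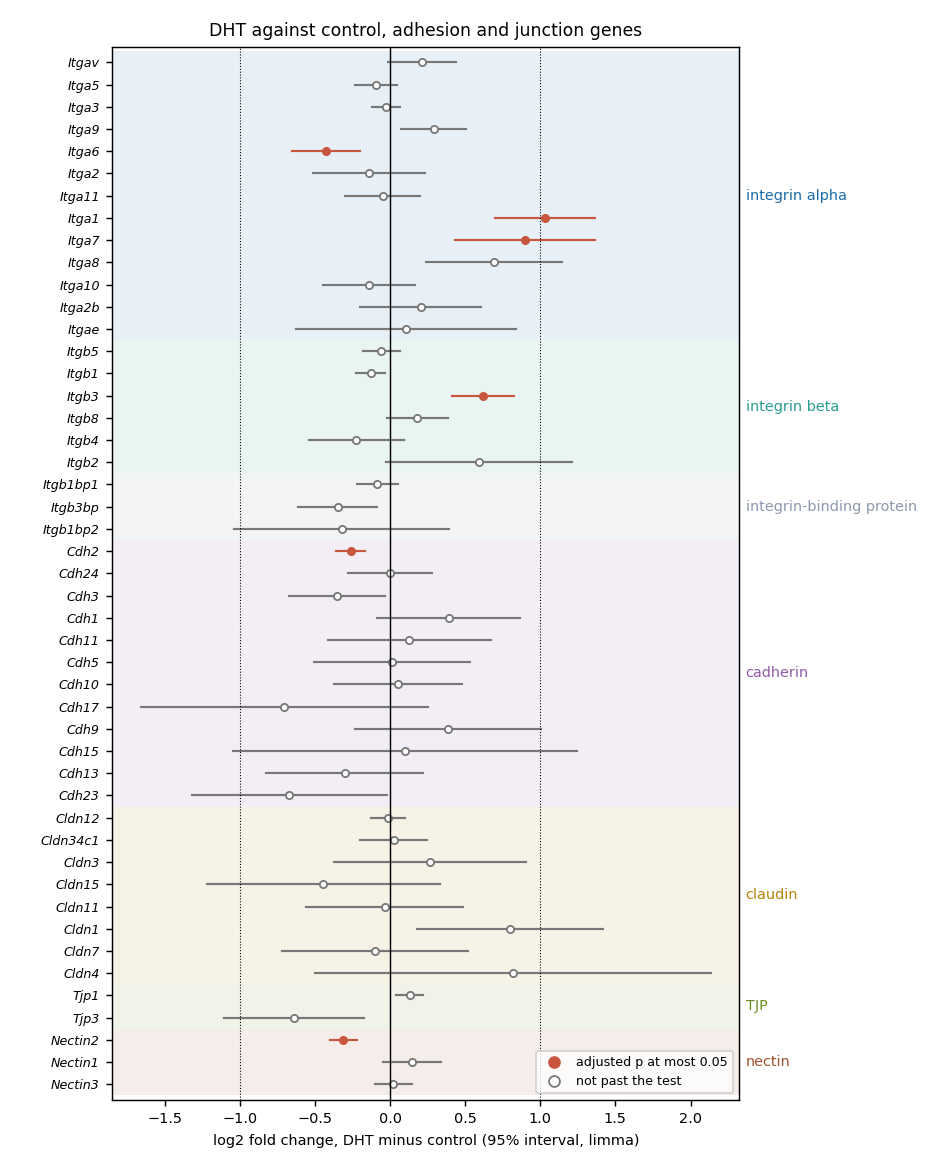
Log2 fold change (DHT minus control) of the members, with 1 not shown, and its 95% interval from limma. Filled points passed an adjusted p of 0.05; dotted lines mark a change of 1 in either direction. Only *Itga1* passed the test beyond a dotted line, and the widest intervals belonged to claudins and cadherins with low counts.

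Of the 12 cadherins, 1 was lower with DHT and 11 did not pass the test. *Cdh2* (ENSMUSG00000024304, chr18:16588877-16809246, minus strand), N-cadherin, had 30659, 29680.4 and 28406 normalized counts in control and 24392, 25229.8 and 24352 with DHT. The groups were clearly apart and each was tight, the means being 29582 ± 1129.6 and 24658 ± 496 (SD, n = 3). The log2 fold change of -0.26 (SE 0.042) corresponds to a fall by 16.6% (adjusted p = 0.00444). *Cdh2* stood at the 97.3rd percentile of all genes in level per length and made up 94.4% to 95.8% of the summed cadherin level in every library. N-cadherin transcripts thus remained by far the main cadherin transcripts in both groups.

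The other cadherins were low. *Cdh24* and *Cdh3* (P-cadherin) came next at 69.2 ± 10.9 and 52.9 ± 5.21 normalized counts per kilobase in control, with log2 fold changes of -0.003 (SE 0.12) and -0.35 (SE 0.14). *Cdh3* had an unadjusted p of 0.0344 and an adjusted p of 0.158, and its groups overlapped. *Cdh1*, E-cadherin of epithelia, had 63.3, 94.8 and 64.8 normalized counts in control and 76.3, 105 and 111 with DHT, a log2 fold change of 0.39 (SE 0.21) with an adjusted p of 0.288. *Cdh23*, a cadherin of sensory hair cells, was the lowest member of all per length and had groups apart, with a log2 fold change of -0.67 (SE 0.29) and an adjusted p of 0.186. *Cdh5*, VE-cadherin of endothelium, had 28.7, 38.1 and 37.1 normalized counts in control and 30.3, 43.6 and 31.6 with DHT. The summed level of 5 measured endothelial markers was 52.6 to 60.7 normalized counts per kilobase in control and 42.5 to 55.4 with DHT, and 0 of 5 passed the test (limma, edgeR and DESeq2), with 1 at an unadjusted p under 0.05. The log2 fold changes of *Cdh9*, *Cdh10*, *Cdh11*, *Cdh13*, *Cdh15* and *Cdh17* lay between -0.70 (*Cdh17*) and 0.38 (*Cdh9*), at means under 100 normalized counts.

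No claudin passed the test in limma, edgeR or DESeq2 (0 of 8), and 1 had an unadjusted p under 0.05. *Cldn12*, a claudin of unusual structure without the scaffold-binding tail, was the most abundant, with 1836, 1849 and 1775 normalized counts in control and 1889.6, 1689.8 and 1825 with DHT. The groups overlapped, and the 95% interval of its log2 fold change ran from -0.13 to 0.10. It held 74.3% to 80.5% of the summed claudin level per length. *Cldn1*, a barrier claudin, was the one with an unadjusted p under 0.05, with 21.8, 42.7 and 42.6 normalized counts in control and 52.8, 66.5 and 62.0 with DHT. Its groups did not overlap, and the log2 fold change was 0.80 (SE 0.27) with an adjusted p of 0.102. *Cldn11*, the claudin of Sertoli cells and myelin, had -0.03 (SE 0.23) at 11.2 ± 0.898 normalized counts per kilobase in control. *Cldn3*, *Cldn4*, *Cldn7* and *Cldn15* had means under 50 normalized counts, with log2 fold changes between -0.44 (*Cldn15*) and 0.82 (*Cldn4*), and *Cldn34c1* had 0.02.

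The claudins and *Cdh1* are genes of epithelia, and 7 markers of the ovarian surface epithelium were measured beside them. Their summed level was 2228 to 2510 normalized counts per kilobase in control and 1772 to 2262 with DHT, and 0 of 7 passed the test in limma or edgeR and 1 in DESeq2, with 2 at an unadjusted p under 0.05. The keratins *Krt8* and *Krt18* supplied most of that sum. *Epcam* stayed between 63.3 and 95.7 normalized counts.

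The Tjp scaffolds link claudins and other junction proteins to actin. *Tjp1* and *Tjp3* did not pass the test in limma, edgeR or DESeq2, although their groups did not overlap. *Tjp1*, ZO-1, had 5206, 5486 and 5533 normalized counts in control and 6001, 6034 and 5728 with DHT, a log2 fold change of 0.13 (SE 0.040) with an adjusted p of 0.0704. *Tjp3*, ZO-3, was low and had 46.5, 68.8 and 63.9 normalized counts in control and 33.3, 38.2 and 41.4 with DHT. Its log2 fold change was -0.64 (SE 0.21) with an adjusted p of 0.0861, and its exons overlap those of *Apba3* on the other strand by 40 bases.

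Among the nectins, *Nectin2* (ENSMUSG00000062300, chr7:19716644-19750483, minus strand) fell. Its normalized counts were 4651, 4523 and 4476 in control and 3513, 3764 and 3725 with DHT, so the groups were tight and far apart beside their spread. The means were 4550.2 ± 90.6 and 3667 ± 135 (SD, n = 3). This is a fall by 19.4% at a log2 fold change of -0.31 (SE 0.040), with the lowest adjusted p of the members (0.00147). Of its exonic bases, 3.86% overlap *Gm20512* on the other strand. *Nectin1* and *Nectin3*, whose products bind each other across cells, had log2 fold changes of 0.15 (SE 0.086) and 0.02 (SE 0.054) and did not pass the test. *Nectin2* remained the most abundant nectin per length, and its share of the nectin level was 69.3% to 72.0% in control and 63.6% to 65.2% with DHT.

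Members of high level passed the test more often than those of low level, and this held over all genes too. Of the 16 members with a mean of at least 1000 normalized counts, 4 passed the test (25.0%), beside 15.5% of all genes at that level. Of the 17 members with a mean under 50, 0 passed the test in limma, edgeR or DESeq2 and 3 had an unadjusted p under 0.05, beside 2.65% of all genes at that level that passed. The median standard error of the log2 fold change was 0.055 in the first group and 0.27 in the second. In absolute size, the log2 fold change of *Cdh2*, -0.26, was below the second of these medians. Members of similar level also differed in standard error, such as *Cdh17* (0.42) and *Cldn11* (0.23). Which changes could have been detected in members of low level was not tested.

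Genes that work with these receptors and junction proteins were taken from 7 lists, of which 109 of 140 genes were measured. Of these, 11 were higher and 16 lower with DHT (24.8%), and the median log2 fold change was -0.01. Of all genes tested, 11.2% passed, 6.52% higher and 4.66% lower. The listed genes with a mean of 1000 normalized counts or more numbered 60, and at that level 15.5% of all genes passed. The 24.8% covers listed genes at all levels, so it and the 15.5% are shares of unlike sets. The members of the lists were chosen with earlier results of these data known, so the share is a description. Without the intensity trend, 4 were higher and 5 lower. Of the genes named below, *Fn1*, *Nedd9*, *Afdn*, *Perp*, *Dsg2* and *Dsc2* passed the test with each library left out. *Tns1* was lost without DHT replicate 2, and *Lims2*, *Tns2*, *Fbln5*, *Npnt*, *Pard3b*, *Pard6a*, *Pard6g* and *Magi1* were each lost without DHT replicate 3 and without at least one other library.

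Integrin adaptors and kinases couple the beta tails to actin and to signalling. Of 26 measured, 7 were higher and 3 lower with DHT, with a median log2 fold change of 0.13. *Lims2*, which binds integrin-linked kinase, had 50.8 ± 14.2 normalized counts in control and 96.8 ± 13.5 with DHT (SD, n = 3), and its log2 fold change was 0.95 (SE 0.23) with an adjusted p of 0.0303. *Nedd9*, a docking protein of focal adhesions, was at 11987 ± 981 and 17869.9 ± 561, with a log2 fold change of 0.58 (SE 0.059) and an adjusted p of 0.00046. The tensins *Tns2* and *Tns1*, which link integrins to actin, had log2 fold changes of 0.46 (SE 0.11) and 0.41 (SE 0.083). In all, 20 of the 26 had a log2 fold change above 0, where 7955 of 16292 genes tested did.

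Integrin ligands moved in both directions. Of 14 measured, 1 was higher and 2 were lower, with a median of -0.20. *Fn1*, fibronectin, the ligand of *Itga5* with *Itgb1* and of the *Itgav* receptors, fell from 10692 ± 1394 (SD, n = 3) to 6109 ± 399 normalized counts, and its log2 fold change was -0.80 (SE 0.087) with an adjusted p of 0.000622. *Npnt*, nephronectin, the ligand of *Itga8*, had a log2 fold change of -0.56 (SE 0.13) with an adjusted p of 0.0294. *Fbln5*, an elastic fibre protein that binds integrins, rose from 1772 ± 435 to 2763 ± 128, a log2 fold change of 0.67 (SE 0.15) with an adjusted p of 0.0212.

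**Figure D5:**
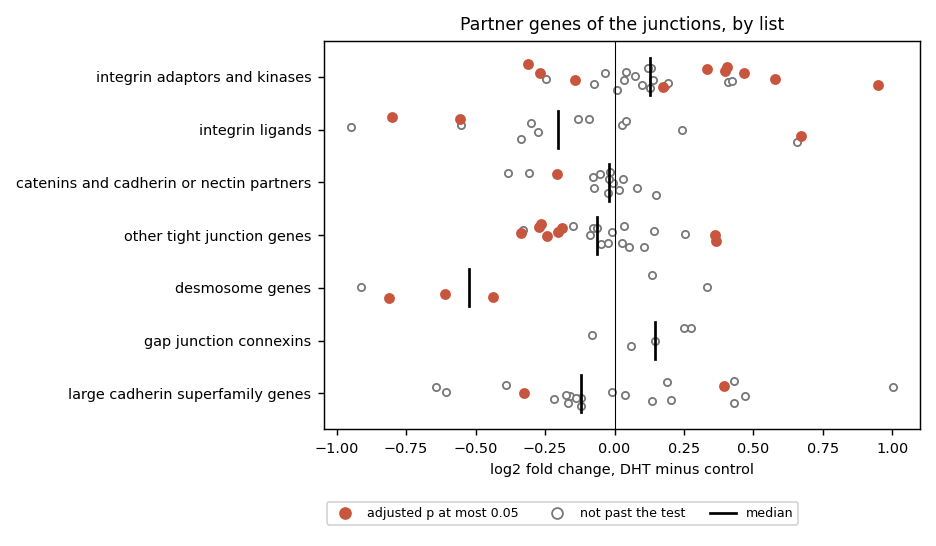
Log2 fold change (DHT minus control) of the 109 measured genes of the 7 lists, one point a gene, with the median of each list as a bar. Filled points passed an adjusted p of 0.05. The adaptors had 7 genes higher, the tight junction list had 6 lower, and the desmosome list had 3 lower.

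Of 14 catenins and other partners of cadherins or nectins, 1 was lower, *Afdn*, afadin, which binds the nectin tail, with a log2 fold change of -0.21 (SE 0.038) and an adjusted p of 0.00847. *Afdn* thus moved in the same direction as *Nectin2*. *Ctnnb1*, beta-catenin, and *Ctnna1*, alpha-catenin, which anchor N-cadherin, had -0.01 (SE 0.039) and -0.02 (SE 0.038) and did not pass the test. Of 23 other tight junction genes, 2 were higher and 6 lower, with a median of -0.06. The polarity genes *Pard6a* (log2 fold change 0.37, SE 0.087) and *Pard6g* (log2 fold change 0.36, SE 0.082) were higher. *Pard3b* (log2 fold change -0.34, SE 0.086) and the scaffold *Magi1* (log2 fold change -0.27, SE 0.067) had the largest falls among those past the test.

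Desmosome genes had the lowest median of the 7 lists, -0.52. Of 13 listed, 6 were measured and 3 were lower with DHT. The other 3 did not pass the test. Among these, *Dsp* had a log2 fold change of 0.33 (SE 0.13) and *Pkp2* 0.13 (SE 0.066). *Pkp3*, at a mean of only 17.9 normalized counts in control, had -0.91 (SE 0.41). *Perp*, a membrane protein of desmosomes, fell from 581 ± 52.4 (SD, n = 3) to 330.2 ± 24.9 normalized counts, and its log2 fold change was -0.81 (SE 0.090) with an adjusted p of 0.000673. *Dsg2* and *Dsc2*, the desmosomal cadherins, had -0.61 (SE 0.065) and -0.44 (SE 0.082), with adjusted p-values of 0.000577 and 0.0097. The classical cadherin *Cdh2* and both measured desmosomal cadherins were thus lower with DHT. The protocadherin *Pcdh7* was higher, and the other 11 cadherin members did not pass the test.

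Some granulosa markers moved as well. *Inha*, *Kitl*, *Esr2* and *Foxl2* were lower and *Hsd17b1* was higher, and the summed level of the 10 measured markers was 54360 to 59059 normalized counts per kilobase in control and 44661 to 46529 with DHT. The fall of this sum was that of *Inha*, since the other 9 markers, summed without it after its values were seen, ranged from 18316 to 22429 in control and from 20255 to 22850 with DHT. The call of *Foxl2* was lost under TMM scaling and in DESeq2, among others. Of 5 theca markers 3 were measured, without *Cyp17a1* and *Insl3*. *Ptch1* was by far the highest of them, at means of 179 in control and 156 with DHT per kilobase. The summed level of the 3 theca markers was 178 to 207 in control and 158 to 172 with DHT, with 0 of 3 past the test in limma and edgeR, 1 in DESeq2 and 2 at an unadjusted p under 0.05. That of 5 fibroblast markers was 277 to 315 and 225 to 309, with 0 of 5 past the test in limma, edgeR and DESeq2 and 1 at an unadjusted p under 0.05. For the 6 oocyte markers it was 158 to 364 and 39.7 to 276, with 0 past the test in limma, edgeR and DESeq2 and 0 at an unadjusted p under 0.05. The part of any of these in the changes of the members was not tested.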

How the data were processed

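Per the labels and the methods, the authors trimmed reads with Trimmomatic 0.36, mapped them to GRCm38 with STAR 2.5.2b and counted unique exonic reads with featureCounts (Subread 1.5.2); the strand setting is not given in the sources used here. The signal the authors deposited is a normalized count, a gene's reads scaled by the DESeq2 size factor for that library. Alongside it, the table holds the authors' log2 fold changes and p-values, and a further table repeats 190 genes; neither was used. Dividing by the value of 1 read gave whole reads for 100% of values in each library (tolerance 0.01). Reads on genes summed to 38486526, 41366587 and 41928585 in control and 39777305, 36111177 and 36240461 in DHT.

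Values were analysed as log2(value + 1), a scale that understates the change of low genes, with limma 3.58.1 (R 4.3.3) and an intensity trend, without a block. The 16292 genes averaging 10 or more normalized counts entered the fit, all 48 members among them. Benjamini-Hochberg adjustment ran over all of them, with a threshold of 0.05 and, where stated, an absolute log2 fold change above 1. The tests were checked on simulated counts. Levels are compared between genes only per kilobase of exonic length in GENCODE. Alternatives were pseudocounts of 0.5 and 8, no filter, a mean of at least 50, TMM scaling, no intensity trend, the replicate number as a block, edgeR 4.0.16 and DESeq2 1.42.0 on the recovered reads, and each library left out.

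The members and lists were chosen with earlier results of these data known, and the values of 1 member, kept in the counts, are not reported here. Any member may be named; values per library are given for members past the test and the most abundant of each family, and for further members chosen after their values were seen. Of each list, at most 4 genes past the test are named, with *Ctnnb1*, *Ctnna1*, *Dsp*, *Pkp2* and *Pkp3* added after their values were seen. Marker lists covered granulosa, theca, endothelium, leukocytes, fibroblasts, smooth muscle and pericytes, surface epithelium and oocytes.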

Additional observations from a re-analysis of the deposited data

How the results depend on the processing

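*Itga1*, *Itgb3*, *Cdh2* and *Nectin2* kept their call under all 15 alternatives. *Itga6* lost it without the intensity trend (adjusted p = 0.128), with the replicate block (0.0679) and without DHT replicate 1 (0.0858) or 3 (0.105). *Itga7* lost it without the trend (0.103) and without control replicate 1 (0.0695), DHT replicate 2 (0.0906) or DHT replicate 3 (0.109). Of the members not past the test, 6 passed it under some alternative (*Itga2*, *Itga8*, *Itga9*, *Itgav*, *Itgb1* and *Tjp3*), and 23 kept their side and direction under all. Members higher with DHT numbered 5 in DESeq2, where *Itga8* and *Itga9* were added to the 3, and 2 to 5 with one library left out; members lower numbered 4 in DESeq2, where *Itgb1* was added, and 2 to 4 with one library left out. Members past both thresholds numbered 0 (without control replicate 1) to 2 (without control replicate 2 and without DHT replicate 1, where *Itga7* was added). Over all genes, 804 passed the test without the trend, and 931 (without DHT replicate 3) to 2094 (without control replicate 3) with a library left out. Both thresholds were passed by 131 genes at a mean of at least 50, where fewer low genes were tested, and by 138 to 286 with a library left out. Of the listed genes, 4 were higher and 5 lower without the trend, and 5 to 14 were higher and 9 to 14 lower with a library left out, the lowest numbers coming without DHT replicates 2 or 3. The cause of these shifts was not tested.

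Deviations from the group means correlated at 0.0058, 0.067 and -0.24 between control and DHT libraries with the same replicate number. Not every library correlated best with its own number. With 3 libraries a group, these correlations cannot decide whether same-numbered libraries share a pool. With the replicate block, 5 of the 6 members passed the test, 3 higher and 2 lower, as did 990 genes in all. Of the listed genes, 8 were then higher and 7 lower, against 11 and 16 without the block.

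With a library left out, 14 members near 0 changed direction, and of these *Itga2* alone passed the test in any such fit (adjusted p = 0.0286 without control replicate 3). Their log2 fold changes then ranged from -0.36 to 0.024 in *Itga2*, from -0.12 to 0.048 in *Itga11*, from -0.048 to 0.0090 in *Itga3*, from -0.0080 to 0.28 in *Itgae*, from -0.15 to 0.11 in *Cdh5*, from -0.071 to 0.19 in *Cdh10*, from -0.14 to 0.28 in *Cdh11*, from -0.35 to 0.64 in *Cdh15*, from -0.075 to 0.12 in *Cdh24*, from -0.32 to 0.0061 in *Cldn7*, from -0.084 to 0.026 in *Cldn11*, from -0.051 to 0.029 in *Cldn12*, from -0.026 to 0.066 in *Cldn34c1* and from -0.024 to 0.068 in *Nectin3*.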

Other observations

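The larger relatives of the cadherins, which carry many cadherin repeats or act in planar polarity, were measured in 21 of 25 listed genes. With DHT, 1 was higher and 1 lower. *Pcdh7*, a protocadherin, had 10208, 11202 and 10982 normalized counts in control and 14381, 13841 and 14355 with DHT, with no overlap, a log2 fold change of 0.40 (SE 0.043) and an adjusted p of 0.000639 (limma). Its level rose while that of *Cdh2* fell in the same libraries. *Fat1*, a giant cadherin, had 25797, 23562 and 29276 in control and 22644, 21370.3 and 18744 with DHT. Its groups were apart, and the log2 fold change was -0.32 (SE 0.088) with an adjusted p of 0.0465 that rose past 0.05 when control replicate 1 or 3 or DHT replicate 2 or 3 was left out.

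Connexins, which form the gap junctions between GCs, were measured in 5 of 19 listed genes, and 0 passed the test in limma, edgeR or DESeq2, with 0 at an unadjusted p under 0.05. *Gja1*, connexin 43, the main connexin of GCs, had 67758, 74161 and 72215 normalized counts in control and 76268, 74856 and 72124 with DHT. The groups overlapped, and the log2 fold change was 0.06 (SE 0.051) with a 95% interval from -0.06 to 0.18.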
